A study of Mus musculus with 14 samples.

Results

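F-box proteins are the part of a ubiquitin ligase that picks its target. They were followed here in 14 mouse tumour arrays, 7 from mice labelled Hif2alpha deficient (also called Hif 2alpha knockdown) and 7 from control mice. The members were the genes whose single symbol in the platform annotation begins with Fbxo, Fbxl or Fbxw and a digit. There were 36 such genes on 57 probesets, of 12393 genes and 22626 probesets in all. The representative probeset of each gene was chosen by its mean level, the highest over all 14 arrays, and both probesets of Fbxo36 are described. The family was taken up because 1 probeset of Fbxo36 had been called in the comparison of these same arrays. The values of Fbxo36 are therefore a description and support nothing further.

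Both groups had a mixed 129 SvJ/C57Bl6 background. Epas1 encodes HIF-2α, a transcription factor that accumulates when oxygen is low. Lung tumours are what the study is known for, but the labels give no organ, driver allele or age, and do not say how Epas1 was disrupted. Surfactant protein gene Sftpa1 read 13.94 ± 0.19 in deficient tumours and 13.98 ± 0.11 in control tumours (log2, SD, n = 7 each). The Epas1 probeset read 5.65 ± 0.51 in deficient tumours and 5.84 ± 0.69 in control tumours, a difference of -0.19 (SE 0.30), and where it lies relative to the disrupted stretch is not known. Array medians were 5.13 to 5.20 in deficient tumours and 5.19 to 5.29 in control tumours. With the last digit left off, the array descriptions hold 6 leading numbers, 4 among deficient and 2 among control arrays. Their meaning is not stated, and arrays that share a leading number may differ in the digit left off. The design text counts 7 mice a group. Should arrays with 1 leading number come from 1 animal, the independent samples would be fewer than 14, so p-values measure the spread between arrays.

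An F-box protein binds SKP1 through its F-box, and SKP1 joins it to the scaffold CUL1 and the RING protein RBX1. This SCF complex moves ubiquitin to the protein that the F-box protein holds, usually after that protein is phosphorylated, and most such targets are then degraded. The family is named by what lies beside the F-box: WD40 repeats in FBXW, leucine-rich repeats in FBXL and other or no known domains in FBXO proteins. HIF-2α itself is degraded through a related ligase in which VHL takes the place of the F-box protein.

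Fbxo36 was lower in deficient than in control tumours in both of its probesets, and the lowest control array stood above every deficient array in each. The annotation gives this gene the symbol of an F-box only protein, and no target of it is named here. In the brighter probeset (1449418_s_at) the lowest, median and highest log2 levels were 6.17, 7.21 and 8.02 in deficient tumours, against 8.14, 8.63 and 9.29 in control tumours. The gap between the groups in that probeset lay between deficient 5 and control 2. The second probeset (1419305_a_at) read 5.89, 6.92 and 7.62 in deficient tumours, against 8.14, 8.61 and 9.80 in control tumours. Deficient 3 and deficient 6 were the lowest arrays in both probesets, and control 6 and control 7 the highest.

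**Figure D1:**
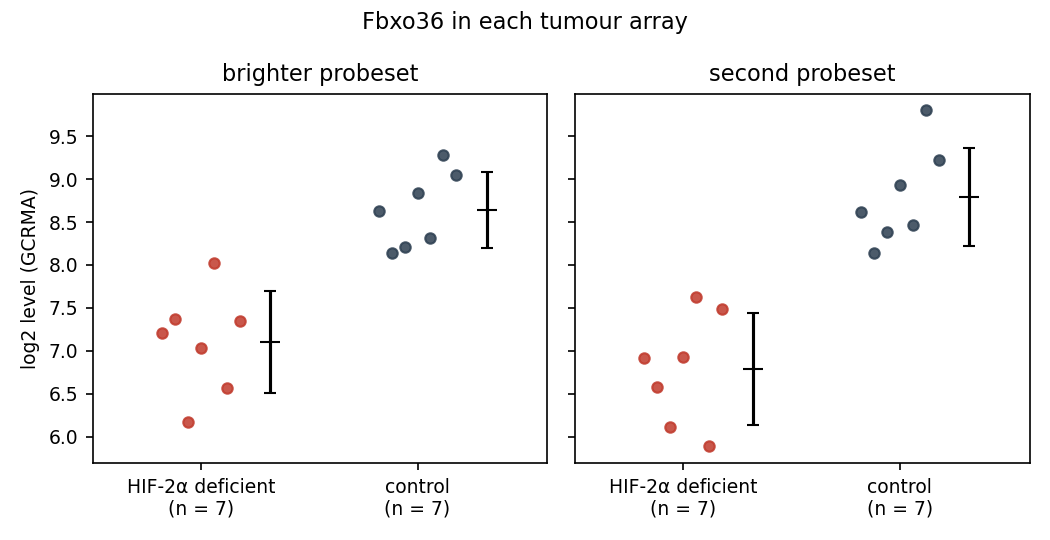
Log2 level of the brighter (left) and second (right) Fbxo36 probeset in each array, with 7 deficient and 7 control points a panel and the group mean ± SD as a bar beside them. Deficient points end at 8.02 and 7.62, below the lowest control points at 8.14 in both panels.

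The means were 7.10 ± 0.60 in deficient and 8.64 ± 0.44 in control tumours for the brighter probeset (SD, n = 7 each), a difference of -1.53 (SE 0.26, 95% interval -2.10 to -0.97, 2.90-fold lower). They were 6.79 ± 0.65 in deficient and 8.79 ± 0.57 in control tumours for the second probeset, a difference of -2.00 (SE 0.30, 95% interval -2.65 to -1.35, 4.01-fold lower). Each difference is that of deficient less control log2 levels, fitted with limma, a linear model with moderated variances. The second probeset was 1 of 5 called among 12701 tested at an adjusted p under 0.05 (0.0394%), and the brighter one missed that threshold. Which of them passed changed with the arrays used. Without control 2, 5, 6 or 7 or deficient 2, 3 or 4 in turn the second probeset missed the threshold, and without control 4 or deficient 5 or 6 the brighter one passed it. The probesets correlated with each other within the deficient group (Pearson r = 0.86, Spearman rho 0.71, n = 7) and within the control group (r = 0.97, rho 1.00, n = 7). They are annotated to the same gene and may share probes. In the array's naming, the suffixes of both probesets mark probes that can match more than 1 transcript.

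Averaged over arrays with a shared leading number, the brighter Fbxo36 probeset read 6.37, 7.19, 7.37 and 7.62 for the 4 numbers of the deficient group. The 2 numbers of the control group gave 8.60 and 8.73. All 4 means of the deficient group lay below both means of the control group. This follows from the groups not overlapping in this probeset and adds nothing to it. The lowest value, 6.37, was that of deficient 3 and deficient 6, which share a leading number. When arrays of 1 leading number were fitted as a random block, the difference was -1.54 (95% interval -2.30 to -0.78) for the brighter and -2.01 (-2.90 to -1.12) for the second probeset, and neither passed the threshold.

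The start of Fbxo36 lies inside the annotated span of Trip12, a HECT-type ubiquitin ligase gene. The 5 tested probesets of Trip12 differed by -0.56 (SE 0.37) to 0.37 (SE 0.25), with both signs among them, and none passed (lowest limma adjusted p = 0.504). Dner, the next protein-coding gene on that side, was at background in both of its probesets. Pid1, Slc16a14 and the others of the 3 nearest genes on either side were not analysed here.

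The bases before the start of Fbxo36 and of 3 other F-box genes with an unadjusted p under 0.05 are shown because HIF proteins bind DNA at the core ACGTG or GCGTG. Each run is the 250 bases before a start site in RefSeq (GRCm38.p6), 5′ to 3′ along the gene. Capitals mark ACGTG or GCGTG, or their reverse complements CACGT and CACGC, and overlapping matches would be merged. Fbxw2 and Fbxo11 have a second start site in that table, not shown.
Fbxo36, chr1:84839591-84839840, + strand: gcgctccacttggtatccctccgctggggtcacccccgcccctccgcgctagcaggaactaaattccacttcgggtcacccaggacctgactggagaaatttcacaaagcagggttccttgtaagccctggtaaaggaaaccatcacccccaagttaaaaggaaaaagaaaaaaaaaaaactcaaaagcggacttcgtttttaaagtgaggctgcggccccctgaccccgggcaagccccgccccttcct
Fbxw2, chr2:34826236-34826485, - strand: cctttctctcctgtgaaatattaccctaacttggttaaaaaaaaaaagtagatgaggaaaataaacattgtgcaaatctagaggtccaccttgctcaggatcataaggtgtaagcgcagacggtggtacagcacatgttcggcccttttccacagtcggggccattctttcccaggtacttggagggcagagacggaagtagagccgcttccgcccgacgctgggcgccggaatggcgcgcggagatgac
Fbxo22, chr9:55208685-55208934, + strand: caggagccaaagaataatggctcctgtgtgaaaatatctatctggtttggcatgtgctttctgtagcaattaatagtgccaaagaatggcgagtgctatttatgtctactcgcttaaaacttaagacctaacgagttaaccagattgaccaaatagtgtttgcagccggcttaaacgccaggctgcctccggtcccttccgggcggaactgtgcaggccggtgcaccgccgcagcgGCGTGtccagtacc
Fbxo11, chr17:88066046-88066295, - strand: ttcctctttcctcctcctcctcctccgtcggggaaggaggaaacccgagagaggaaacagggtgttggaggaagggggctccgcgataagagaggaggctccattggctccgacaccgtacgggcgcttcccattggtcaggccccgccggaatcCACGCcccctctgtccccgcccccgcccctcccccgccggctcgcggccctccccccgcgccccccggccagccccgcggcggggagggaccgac
Neither core was found in the Fbxo36 or Fbxw2 window, while Fbxo22 and Fbxo11 each held 1. Of the 24 F-box genes with a window, 13 held a match in at least 1 window (54.2%), beside 41.5% of all 27025 genes there. A 5-base match is a description of letters, and its absence says only that these letters are not in the window.

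Across the family, 28 of 36 genes had a value above 4 in at least 7 arrays and were tested. At an adjusted p under 0.05 0 of 28 representative probesets were called by limma (0.0386% of all tested genes), and 6 had an unadjusted p under 0.05, 4 higher and 2 lower in deficient tumours. Those 6 are 21.4% of the 28, beside 15.2% of all 7771 tested genes, and with so few members nothing is read from that gap. With array weights, the alternative with the most calls over all probesets, 3 of 28 were called (15.6% of all tested genes) and 11 had an unadjusted p under 0.05 (33.1% of all tested genes). By sign 13 were higher (50.4% of all tested genes) and 15 lower, with a median difference of -0.028, beside 0.003 over all tested genes. Centring each array on its median gave a family median of 0.053, so its sign is not settled. It also turned the 4 higher and 2 lower into 7 higher and 1 lower. Centring moves the difference of every gene by the same amount, and the share of all tested genes was not taken in that fit. Nothing is read from that split. Fbxo36 was the 1 representative whose groups did not overlap (0.476% of all tested genes). For the 27 others the 95% interval lay within 1 log2 unit of 0 on both sides, and for 13 genes within 0.5.

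**Figure D2:**
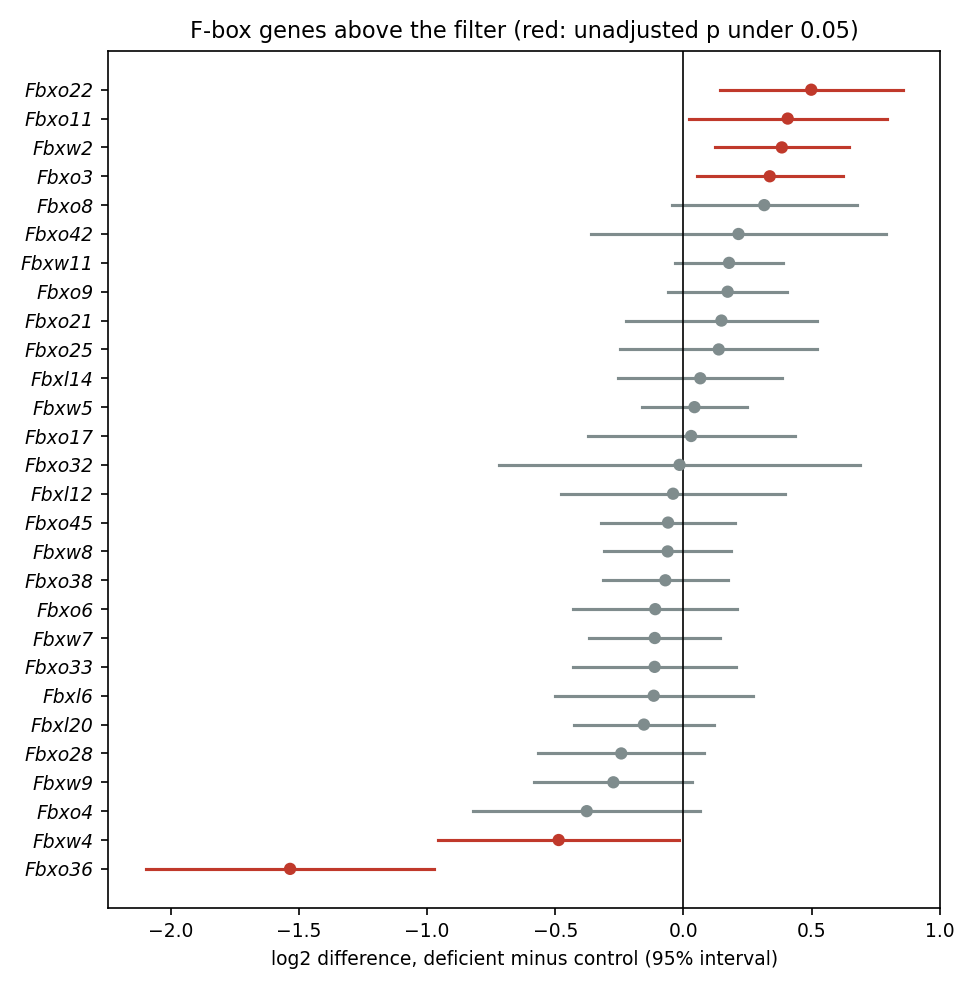
Log2 difference, deficient minus control, with its 95% interval for the 28 tested F-box genes, the highest at the top. Red marks an unadjusted p under 0.05. Fbxo36 stands at -1.53 and the other genes lie between -0.49 (Fbxw4) and 0.50 (Fbxo22).

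By subfamily, the 17 tested Fbxo genes ran from -1.53 to 0.50 and split into 9 higher and 8 lower. The 7 tested Fbxw genes ran from -0.49 to 0.38, with 3 higher and 4 lower. The 4 tested Fbxl genes, of 6 on the array, stayed between -0.15 and 0.07, and their lowest unadjusted p was 0.247 in the limma fit.

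The other members with an unadjusted p under 0.05 were Fbxw2, Fbxo22, Fbxo3 and Fbxo11, higher in deficient tumours, and Fbxw4, lower. None passed over all probesets. Fbxw2, which in human trophoblast cells targets the placental transcription factor GCM1, had a lowest, median and highest level of 7.50, 7.57 and 8.10 in deficient tumours, against 7.08, 7.38 and 7.57 in control tumours. All 7 deficient arrays lay above the control mean, though the groups overlapped. The difference was 0.38 (SE 0.12, limma adjusted p = 0.184). Its other 4 tested probesets differed by 0.12 to 0.39, all upward.

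Fbxo22, which targets the histone demethylase KDM4A, read 7.54, 8.04 and 8.57 in deficient tumours, against 7.31, 7.55 and 7.84 in control tumours. The difference was 0.50 (SE 0.17, limma adjusted p = 0.204), with 6 of 7 deficient arrays above the control mean, and its second probeset differed by 0.34 (SE 0.23). These 2 genes kept an unadjusted p under 0.05 in all 25 alternatives run on them. They were picked for a low p in these same arrays, which the alternatives reuse, so that supports nothing further. Fbxo3, which targets the F-box protein FBXL2 in human cells, read 8.47, 8.68 and 9.30 in deficient tumours, against 8.21, 8.44 and 8.70 in control tumours. That difference of 0.34 (SE 0.13, limma adjusted p = 0.265) was seen in its brightest probeset, while the other tested probesets gave 0.03 (SE 0.17) and -0.01 (SE 0.07). The last of these was nearly flat, at 4.618 to 4.769 in deficient and 4.685 to 4.752 in control tumours, so its sign carries no weight.

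Fbxo11, which targets the transcription factor BCL6, read 9.24, 9.69 and 10.36 in deficient tumours, against 9.20, 9.36 and 9.74 in control tumours. Deficient arrays spread more widely (SD 0.45) than control arrays (SD 0.19), and the difference was 0.41 (SE 0.18, limma adjusted p = 0.321). Fbxo11 is the 1 member on chromosome 17, where 15 protein-coding genes separate it from Epas1, the gene of HIF-2α. Whether that position bears on the value was not tested. Fbxw4, the gene called dactylin for its link to the mouse limb mutation dactylaplasia, read 6.97, 7.79 and 8.36 in deficient tumours, against 7.70, 8.29 and 8.57 in control tumours. The difference was -0.49 (SE 0.22, limma adjusted p = 0.328), and 2 of 7 deficient arrays lay above the control mean.

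**Figure D3:**
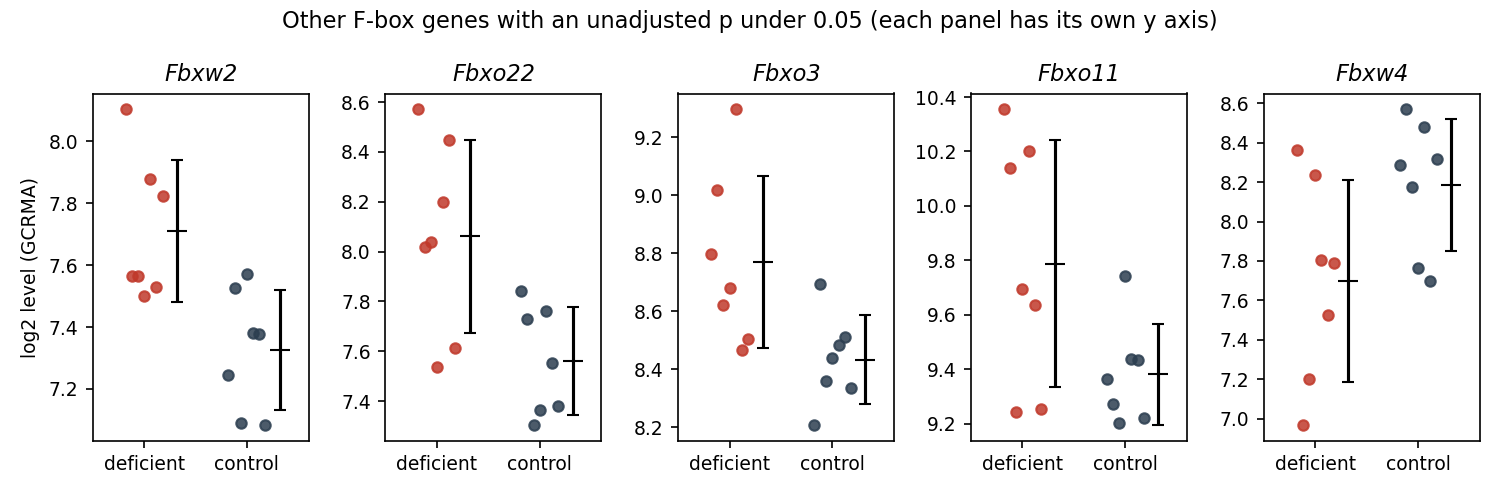
Log2 level in each array of the 5 F-box genes other than Fbxo36 with an unadjusted p under 0.05, deficient left and control right, with the mean ± SD of 7 arrays as a bar and a y axis of its own for each gene. In every panel the groups overlap, and the differences run from -0.49 for Fbxw4 to 0.50 for Fbxo22.

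Members known for tumour or cell cycle control gave no call. Fbxw7, the tumour suppressor that targets cyclin E, MYC and NOTCH proteins, read 8.53, 8.81 and 9.01 in deficient tumours, against 8.73, 8.82 and 9.40 in control tumours. The difference was -0.11 (SE 0.12, 95% interval -0.37 to 0.14). Fbxw11, one of the beta-TrCP proteins that target beta-catenin and the NF-kappa-B inhibitor, differed by 0.18 (SE 0.10, 95% interval -0.03 to 0.39) in a probeset whose suffix marks probes open to cross-hybridisation, and by 0.12 (SE 0.13) in its other tested probeset. Fbxo4, reported to target cyclin D1, differed by -0.38 (SE 0.21, 95% interval -0.82 to 0.07). Fbxl12 differed by -0.04 (SE 0.21) and Fbxl14, which targets the Snail transcription factors, by 0.07 (SE 0.15). Fbxo31, which targets cyclin D1 after DNA damage, lay below the filter at 2.98 ± 0.38 in deficient and 3.03 ± 0.25 in control tumours (SD, n = 7 each).

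Members with roles in protein quality control, trafficking, neurons or muscle gave no call either. Fbxo6, which binds sugar chains of misfolded glycoproteins, differed by -0.11 (SE 0.15), and its brain relative Fbxo2 lay below the filter. Fbxo9 differed by 0.17 (SE 0.11), Fbxw5 by 0.04 (SE 0.10), Fbxl20 by -0.15 (SE 0.13) and Fbxw8, which works with CUL7 in place of CUL1, by -0.06 (SE 0.12). Fbxo45, which works with MYCBP2 in neurons, differed by -0.06 (SE 0.12). Fbxo32, the muscle atrophy gene atrogin-1, was the least precise member at -0.01 (SE 0.33, 95% interval -0.72 to 0.69). Fbxo21 differed by 0.15 (SE 0.18) and Fbxo42, which was above 4 in 12 of 14 arrays, by 0.21 (SE 0.27), or by 0.050 without deficient 3 and 0.41 without deficient 7.

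The other 8 tested members included Fbxo8 (0.32, SE 0.17), Fbxo25 (0.14, SE 0.18), Fbxo17 (0.03, SE 0.19), Fbxo38 (-0.07, SE 0.11), Fbxo33 (-0.11, SE 0.15), Fbxl6 (-0.12, SE 0.18) and Fbxo28 (-0.24, SE 0.15). The last was Fbxw9, at -0.27 (SE 0.14). The 8 genes under the filter were Fbxl8, Fbxl15, Fbxo2, Fbxo15, Fbxo16, Fbxo31, Fbxo43 and Fbxw14, with means over all arrays of 2.15 to 3.01. At that level a value is a bound set by background. They include Fbxo15, a gene of embryonic stem cells, and Fbxo43, the meiotic inhibitor EMI2. Fbxo16 reached 2.31 at most in deficient tumours and 3.61 in control tumours, all under 4.

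Probesets of the same gene gave the same direction in 6 of the 7 members with more than 1 tested probeset. Fbxw2 was higher in 5 of 5, Fbxo22, Fbxo9 and Fbxw11 in 2 of 2 each, and Fbxo33 and Fbxo36 were lower in 2 of 2. The dimmest Fbxw2 probeset passed the filter mainly through the deficient arrays and adds nothing to its count. Fbxo3 was the exception, through a nearly flat probeset at -0.01. Probesets of 1 gene read the same RNA and are no replicates.

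**Figure D4:**
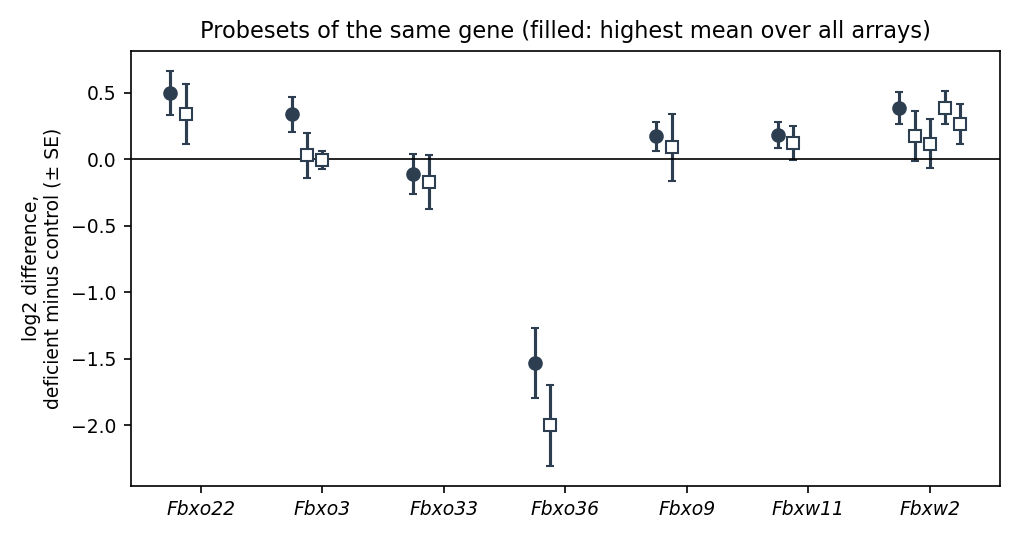
Log2 difference, deficient minus control, ± SE for each tested probeset of the 7 F-box genes that have several, with the representative probeset filled. Both Fbxo36 probesets lie at -1.53 and -2.00, while all others lie between -0.17 and 0.50.

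Partners of the F-box proteins showed no call. Of 36 listed symbols for SCF subunits, the NEDD8 pathway, the COP9 signalosome and partner enzymes, 28 were found and 27 tested. By limma 0 passed, and 4 higher and 0 lower had an unadjusted p under 0.05, where 7.45% of all tested genes were higher and 7.73% lower at that level. These 4 were Dcun1d1, which helps attach NEDD8 to cullins (0.56, SE 0.18), the RING protein gene Rnf7 (0.26, SE 0.09), the conjugating enzyme gene Ube2d3 (0.29, SE 0.11) and Uba3, a subunit of the NEDD8-activating enzyme (0.32, SE 0.14), with limma adjusted p-values of 0.197 to 0.291. The median difference of the list was 0.04. The adaptor Skp1 differed by 0.17 (SE 0.11) and the scaffold Cul1 by 0.07 (SE 0.13), while Rbx1 was not analysed here.

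Of 5 F-box genes that carry other names, 4 were found. Kdm2b differed by 0.14 (SE 0.08) and Btrc, the other beta-TrCP gene, by -0.22 (SE 0.28). Skp2 read 3.39 in deficient and 3.25 in control tumours and Ccnf 4.25 in deficient and 3.52 in control tumours (log2 means, n = 7 each), both under the filter. The 24 genes of well-known SCF substrates, whose proteins and not transcripts the ligases act on, held 22 tested genes. Of these 12 were higher and 10 lower, 2 in each direction had an unadjusted p under 0.05, and limma called 0. Over all tested genes 7.45% were higher and 7.73% lower at that level, so the 4 are near the background and only their values are given. They were the clock gene Per1 (-1.37, SE 0.34), Notch1 (-0.55, SE 0.16), the cell cycle inhibitor gene Cdkn1b (0.44, SE 0.15) and Ccnd1 (0.24, SE 0.10), with limma adjusted p-values of 0.132 to 0.289.

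Markers of ciliated airway cells were lower in the deficient group, as Fbxo36 was. In bulk tumours fewer cells of a type and less RNA per cell cannot be told apart. Of 24 listed ciliated markers 10 were found and 6 passed the filter, and all 6 were lower in deficient tumours at an unadjusted p under 0.05 (7.73% of all tested genes), with 0 called by limma. That count supports nothing, because Rsph1, Spag6l, Tekt1 and Mlf1 were above 4 in 2 of 7 deficient arrays and passed the filter through the control arrays. Tppp3, above 4 in every array, differed by -2.32 (SE 0.57). The summed level of the 10 genes, on the linear scale, ran from 109 to 1590 in deficient tumours, against 765.7 to 6670 in control tumours. The defining factor Foxj1 averaged 2.49 in deficient and 4.25 in control tumours (log2, n = 7 each) and Rfx3 was at background throughout. The axonemal gene Lrrc23 differed by -3.49 (SE 0.99), but was above 4 in 4 of 7 deficient and 7 of 7 control arrays. It too needed the control arrays to pass the filter, and its lowest deficient value was 2.44, where background sets the level.

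Within groups, the brighter Fbxo36 probeset and the mean log2 level of the ciliated markers had r = 0.67 among deficient arrays and r = 0.63 among control arrays (rho 0.68 and 0.61, n = 7 each). Deficient 1 and deficient 5 had marker means of 5.59 and 4.96, within the control range of 4.24 to 7.35, and Fbxo36 at 7.21 and 8.02, under the lowest control array. With the ciliated mean as a covariate the Fbxo36 difference was -0.96 (95% interval -1.58 to -0.34) in the brighter and -1.34 (-2.05 to -0.62) in the second probeset. Of the 10 genes in that mean 6 passed the filter. The means of 5 deficient arrays lay below the lowest control mean, so the groups share few marker levels in that fit. Whether ciliated cells bear on the Fbxo36 difference was not tested.

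Most of the listed club and secretory markers were lower too, in 11 of 12 tested genes, 8 at an unadjusted p under 0.05 (7.73% of all tested genes) and 0 called by limma. Scgb1a1 was the 1 that was higher, by 0.06 (SE 0.11). Cyp2f2 (-0.56, SE 0.30), Cbr2 (-1.44, SE 0.74) and Cckar (-0.86, SE 0.52) were lower without reaching that level. Ltf, above 4 in 9 of 14 arrays, passed the filter through the control arrays, so the count of 8 supports nothing either. Their summed level was 20310 to 61490 in deficient tumours, against 44400 to 91180 in control tumours, and their mean had r = 0.08 among deficient and r = 0.27 among control arrays with Fbxo36 (n = 7 each). Of 8 endothelial markers 7 were lower and 0 had an unadjusted p under 0.05. Their summed level was 850.3 to 5182 in deficient tumours, against 1672 to 3919 in control tumours. Their mean followed Fbxo36 at r = 0.87 among deficient and r = 0.52 among control arrays (rho 0.75 and 0.43, n = 7 each), and was lowest in deficient 3 and deficient 6. With the endothelial mean as a covariate Fbxo36 differed by -1.28 (95% interval -1.70 to -0.87), and without deficient 3 and deficient 6 by -1.24 (-1.74 to -0.75) in the brighter probeset. Both were chosen after seeing the data.

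**Figure D5:**
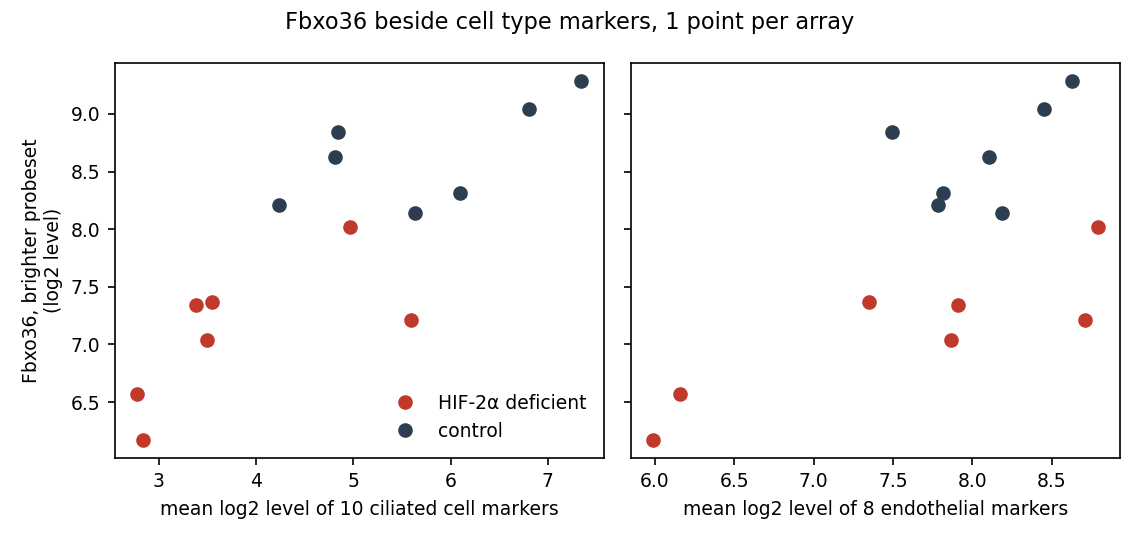
Log2 level of the brighter Fbxo36 probeset in each array against the mean log2 level of 10 ciliated (left) and 8 endothelial (right) markers, with deficient arrays in red and control arrays in dark blue. Deficient 3 and deficient 6 stand at the lower left of both panels, at 6.17 and 6.57.

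The other marker lists gave no like pattern in both groups. Alveolar type II markers were higher in 6 of 7 genes with a median difference of 0.04, and their mean had r = 0.78 with Fbxo36 among deficient and r = -0.51 among control arrays (n = 7 each). Fibroblast markers were lower in 4 of 5 genes, macrophage markers in 5 of 6, T and B cell markers in 2 of 3 and proliferation markers in 3 of 5. Medians of these lists were -0.41, -0.42, -0.29 and -0.06.

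The genes most like Fbxo36 in their deviations from the group means over 14 arrays, among 7743 tested genes outside the family, were Frmd6 (r = 0.88), Rrm2b (0.87), Siah1a (0.84), Ctcf (0.84), Sox7 (0.84), Ldb2 (0.83), Fzd6 (0.83) and Baz2b (0.82). The points share arrays and their normalisation, and the top of so many correlations is high by selection. Between groups these genes differed by -0.56 (Sox7) to 0.36 (Siah1a), with limma adjusted p-values of 0.258 to 0.981. None of the ciliated markers was among them, but only 6 of those markers passed the filter and could be compared. With so few among 7743 genes, absence from so short a list is likely whatever their relation to Fbxo36. Whether ciliated cells bear on Fbxo36 was not tested by this list. Within the family the same measure ran from -0.62 for Fbxo42 to 0.62 for Fbxw7 over 27 genes, on both sides of 0.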

How the data were processed

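Trizol-extracted total RNA was turned into biotinylated cRNA for Affymetrix arrays, per the labels' protocols. The deposited values are log2 probeset levels that the authors made with GCRMA, per the submitters' processing notes, with the version not given in the sources used here. Of the values 43.9% lay under 4, where background sets the level. Of 22690 probesets 64 were array controls, and the platform annotation gave 20380 probesets 1 gene, 691 several and 1555 none. Gene IDs were matched to RefSeq (GRCm38.p6), which updated 0 symbols.

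The group difference was fitted in limma 3.58.1 and R 4.3.3 (lmFit, eBayes, 1 group term, two-sided), checked on simulated data. Probesets with a value above 4 in at least 7 of 14 arrays were tested (12701, with 9925 left out), and p-values were adjusted by Benjamini-Hochberg over all of them. The number of arrays limits the precision: standard errors of the 28 tested members were 0.095 to 0.330. Probe response differs, so levels were not compared between genes.

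Named genes are both Fbxo36 probesets, members with an unadjusted p under 0.05, the 5 with the highest mean, further members with a known role, the leading genes of each pathway list and the 8 most like Fbxo36. Trip12, marker genes and further members were named beside them. Members and lists were chosen with earlier results of these data known. Alternatives covered filter, scaling, variance model, array weights, blocks, marker covariates and each array left out.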

Additional observations from a re-analysis of the deposited data

Results flagged for a closer look

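The 58 group series were those of the 28 tested representative probesets and of the second Fbxo36 probeset in each group. In 8 of them 1 array stood apart from the other 6, by Dixon's gap against the range. Chance would give about 2.9 in independent series of normal values. These series share arrays, and Fbxo17 and Fbxo42 read nearly the same in several of them, so nothing is read from the number set apart. Among deficient arrays, deficient 7 read 7.86 for Fbxo4 (others 6.25 to 6.79) and 4.18 for Fbxo17 (others 4.78 to 5.20), and deficient 2 read 8.57 for Fbxo25 (others 7.57 to 7.85). Among control arrays, control 4 read 9.87 for Fbxo9 (others 10.35 to 10.48) and 4.10 for Fbxo17 (others 4.98 to 5.23). Control 6 read 9.40 for Fbxw7 (others 8.73 to 8.93) and 3.84 for Fbxo42 (others 4.65 to 5.19), and control 1 read 7.73 for Fbxo38 (others 7.90 to 7.99). Neither Fbxo36 probeset had such an array.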

How the results depend on the processing

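Both Fbxo36 probesets kept their negative sign in every alternative run, which supports nothing further. With groups that do not overlap, leaving arrays out could not change that sign. Another filter or variance model, or the replicate block, left the estimates as they were. The second probeset missed the threshold with no filter (-2.00), with a random block for the leading number (-2.01), with the replicate block (-2.00) and with the ciliated covariate (-1.34). The brighter one passed with a trended, robust variance (-1.53), with array weights (-1.36), without deficient 3 and 6 (-1.24) and with the endothelial covariate (-1.28). With 1 array left out the brighter differed by -1.69 to -1.38 and passed in 3 of 14 fits, and the second by -2.14 to -1.83 and passed in 7. The count of called members, 0, was 1 with the robust variance, at an adjusted p under 0.1, without deficient 3 and 6 and with the endothelial covariate, 3 with array weights, and 0 to 1 with 1 array left out. The count at an unadjusted p under 0.05, 6, was 11 with array weights, 3 with the random block and 3 to 7 with 1 array left out. Of all tested genes 15.2% reached that level in the main fit and 33.1% with array weights. That share was not taken in the other fits, so their counts say nothing about the members in particular. The family median, -0.028, was 0.053 after centring, 0.037 with the endothelial covariate and -0.072 to 0.047 with 1 array left out. Over all probesets the 5 calls became 1900 with array weights, 9 with the robust variance, 31 with the endothelial covariate or without deficient 3 and 6, 2 with the replicate block, and 0 with no filter, the random block or the ciliated covariate. With 1 array left out they were 0 (without deficient 2 or 4) to 85 (without control 4), with 30 without deficient 6. The cause was not tested. Of 19 other named members 9 changed sign in at least 1 alternative, and Fbxo11 and Fbxw4 passed, both under array weights. Replicate numbers were not seen to pair the arrays, though 7 pairs could miss a weak shared factor. Same-numbered deviations correlated at -0.23 to 0.22, above 0.1 in 2 of 7 pairs, and 0 deficient arrays matched their own number best.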
